A study of Mus musculus with 9 samples.

Results

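Tumorspheres (TMS), non-adherent spheres grown from mouse mammary tumors, were compared across all measured genes with mammosphere cells that had been induced to differentiate (diffMMS). The comparison was made by the sample type given in the labels, with 3 TMS and 3 diffMMS arrays, or 6 of the 9 arrays of the series. The remaining 3 arrays hold mammospheres (MMS), the parental culture of the differentiated cells, and their levels are given beside some genes to show on which side a difference arose. In the study the tumorspheres stand for tumor-initiating cells, the mammospheres for normal stem and progenitor cells and the plated culture for mature epithelium. Each preparation gave RNA for 1 Affymetrix MOE430A array.

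Tumorspheres came from independent tumors of MMTV-Neu [N2O2] mice, in which the MMTV promoter drives Neu in mammary epithelium, and the strain of these samples is not given in their labels. They were kept in mouse stem cell medium for 3 to 5 passages of 7 days each. The diffMMS arrays hold FVB/N cells without a labelled transgene, from glands of virgin females 6 to 8 weeks old per the study's methods, which first grew as mammospheres in the same medium. Those spheres were then dispersed, plated on rat-tail collagen and kept in medium with serum for 7 days, so that the groups differ in tumor origin, attachment, collagen and serum at once. All cultures began from bulk primary cells. Genotype, serum and attachment therefore cannot be told apart between TMS and diffMMS.

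The luminal cells of the mammary gland line the ducts, carry keratins 8 and 18 and E-cadherin, and make milk in lactation. Basal or myoepithelial cells surround them, carry keratins 5 and 14 and contract through smooth muscle actin. Fibroblasts of the stroma make fibrillar collagen and the enzymes that crosslink it, and can take on contractile genes of smooth muscle. Neu is the rodent counterpart of human HER2, a receptor of the ErbB family that signals through the MAPK and PI3K pathways.

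The arrays were close to each other in scale. Median intensities were 84.0 to 88.6 over the 9 arrays, and Spearman correlations across probe sets were 0.985 to 0.993 among TMS arrays, 0.990 to 0.995 among diffMMS arrays and 0.950 to 0.965 between the groups. The log2 ratio of 3 prime to 5 prime control probe sets, a sign of RNA quality, overlapped between the groups for Actb (0.23 to 0.37 in TMS and 0.30 to 0.39 in diffMMS) and for Gapdh. The TMS arrays carry the codes 1099A, 1100A and 1101A and the diffMMS arrays 861A, 862A and 863A. The MMS codes (858A, 859A and 860A) adjoin those of diffMMS. Whether these number blocks stand for separate runs is not given in the labels. Code block and group cannot be told apart, and a difference of TMS from both other cultures follows the blocks too. Levels below are log2 of the intensity after addition of 8.67 and quantile normalization. Because 8.67 was added, folds of dim genes are understated. The lower quartile over genes lay at 5.92 to 5.96 in the arrays. For a gene near or below it, a difference can be missed. Values are listed in the order of the array codes above, and the level of one probe set cannot be set against that of another.

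Of 22626 probe sets, 2771 (12.2%) were higher in TMS and 2582 (11.4%) were lower (limma, adjusted p under 0.05). Over the 12393 genes, each taken with its brightest probe set, 12.3% were higher and 12.6% lower, and these shares are the background for every count of list members below. The median log2 fold change over genes was -0.03. Most differences were small, as 216 genes were higher and 200 lower by at least 2-fold, and 20 and 23 by at least 8-fold. The study's methods call the 3 cell populations of every group independent, and whether the diffMMS populations came from separate animals is not given, so that p-values measure the spread between these preparations.

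The 10 largest rises in TMS included Csn3, Lcn2, Krt18, Chil1, Epcam and Wfdc18. Csn3, which encodes kappa-casein of milk, had levels of 13.05, 12.85 and 12.85 in TMS and 6.72, 6.36 and 6.67 in diffMMS, a difference of 6.33 on the log2 scale or 80.7-fold (standard error 0.218, adjusted p = 2.8e-09). Its second probe set differed by 0.57, in the same direction and past the test. Lcn2, the secreted iron-siderophore carrier lipocalin 2, stood at 12.36, 12.05 and 12.50 against 6.33, 6.56 and 6.49. The groups lay far apart for both genes, and the arrays of each group lay close together. Krt18, the luminal keratin, rose by 4.71, Chil1, a secreted chitinase-like protein, by 4.09 and Epcam, the epithelial adhesion molecule, by 3.79. Wfdc18, a small secreted protease inhibitor-like protein of the mammary gland, was higher by 3.77 (standard error 0.0959), with array levels of 10.97 to 11.08 in TMS and 7.17 to 7.30 in diffMMS. MMS lay far below TMS for these genes, at 7.83 for Csn3, 6.88 for Lcn2, 5.93 for Krt18 and 7.05 for Wfdc18. Among them Csn3 was lower again in diffMMS than in MMS (log2 fold change -1.25).

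Another set of leading genes was high in both sphere cultures and low after differentiation. Tm4sf1, a tetraspanin-like surface protein, was higher in TMS by 3.80, with 10.51 in MMS against 7.29 to 7.81 in diffMMS, although its second probe set gave 0.24. Mmd had levels of 11.11, 11.09 and 11.58 in TMS, 11.15 on average in MMS and 7.73, 7.72 and 7.69 in diffMMS, and its log2 fold change of 3.55 stood beside 0.11 against MMS. Scd1, a fatty acid desaturase, was higher by 3.45 (standard error 0.136, adjusted p = 6.3e-09) with 11.55 in MMS. Thus Mmd and Scd1 separated the sphere cultures from the adherent culture, while Csn3, Lcn2, Krt18, Epcam and Wfdc18 separated tumorspheres from both cultures of normal gland. The TMS and MMS arrays are shared between these statements, which are values side by side and no separate tests.

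On the diffMMS side, the largest difference was that of Reg1, a secreted lectin, with 9.96, 9.93 and 9.53 against 5.05, 5.10 and 4.89 in TMS (log2 fold change -4.79, standard error 0.110, adjusted p = 1.6e-10). Ccn3, a matricellular protein, had a log2 fold change of -4.62, Scg2, a secretogranin, -4.58 and Sfrp2, a secreted Wnt antagonist, -4.33. Abi3bp, Ptx3 and Aspn, which encode matrix-associated or secreted proteins, had log2 fold changes of -4.21, -4.20 and -4.06. Cyp1b1, a cytochrome P450 of the aryl hydrocarbon response, gave -3.99, Adamts5, an aggrecan-cleaving protease, -3.69 and Adm, the vasoactive peptide adrenomedullin, -3.61. MMS levels lay within 0.13 of TMS for Reg1, Scg2, Sfrp2, Abi3bp, Ptx3, Cyp1b1 and Adamts5, so that for these genes the difference arose in the differentiated cells.

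**Figure D1:**
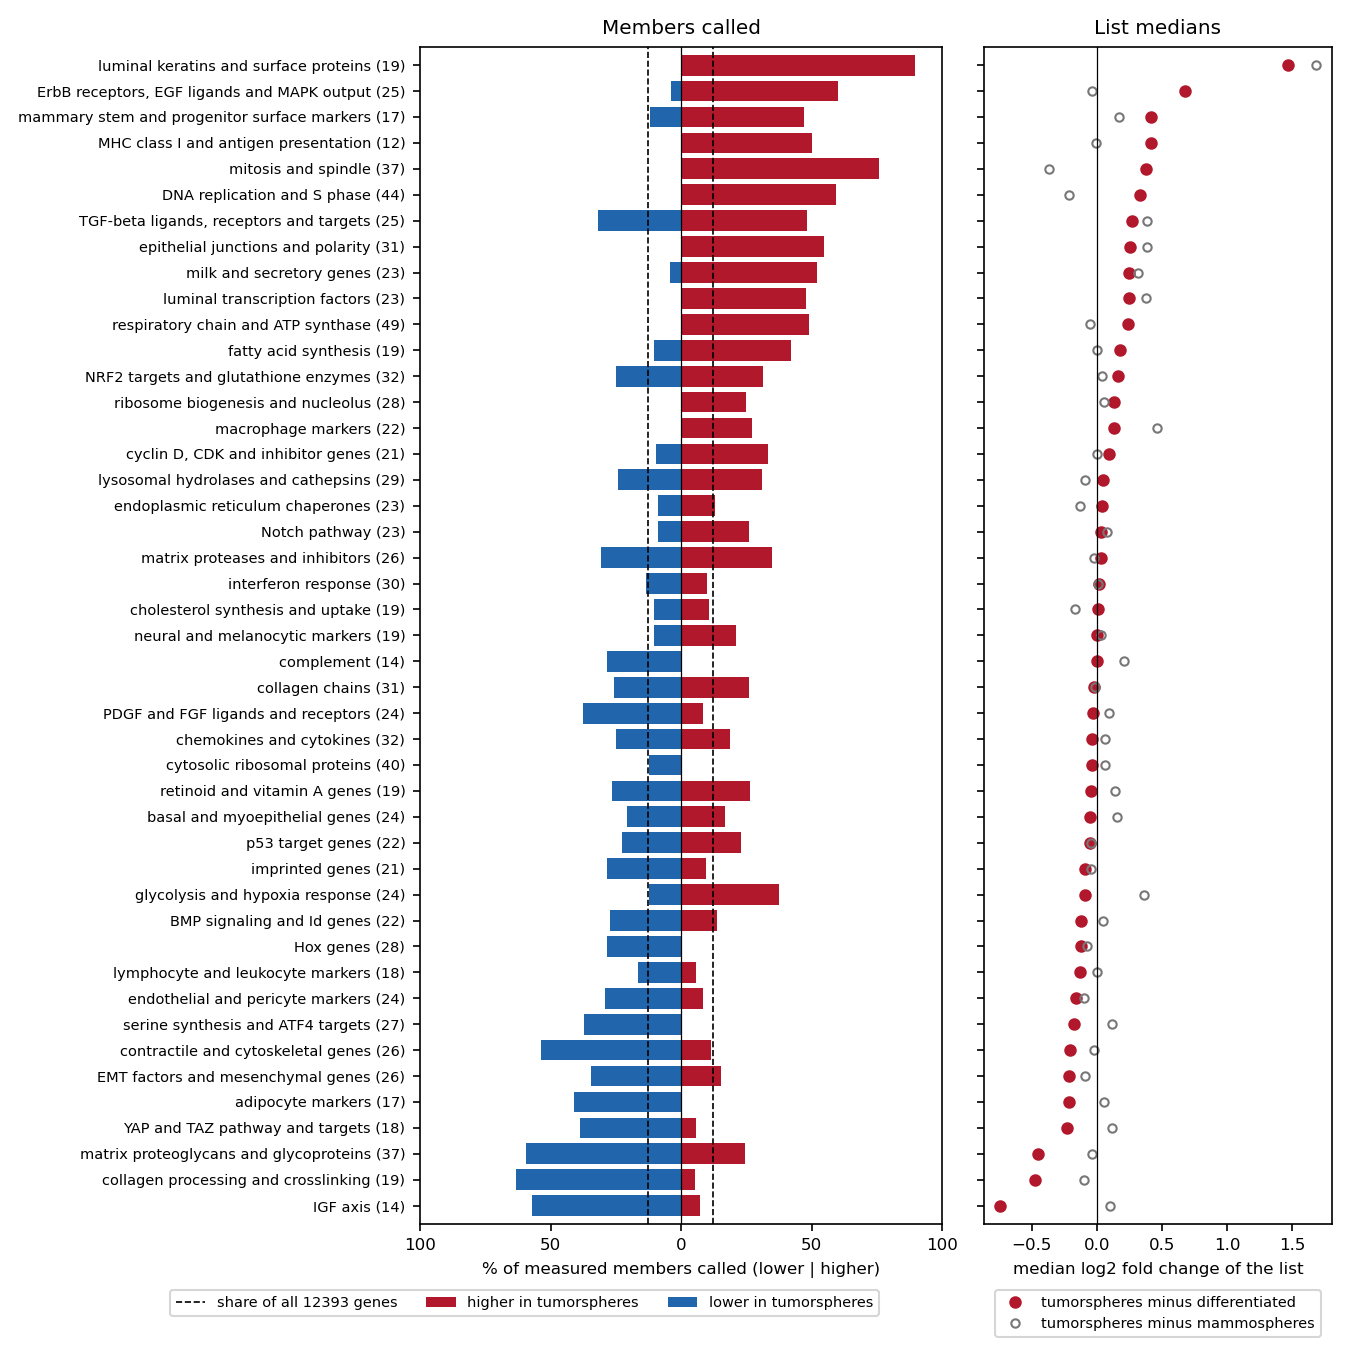
Percent of measured members called higher (red, right) or lower (blue, left) in tumorspheres than in differentiated mammosphere cells for 45 gene lists (number measured in brackets), with the share of all genes as dashed lines, and the median log2 fold change of each list against differentiated cells (filled) and mammospheres (open). Luminal keratins and surface proteins have the highest median (1.47) and the IGF axis the lowest (-0.75).

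Luminal surface and keratin genes were the list with the most one-sided change. Of 19 measured members, 17 were higher in TMS and none was lower, with a median log2 fold change of 1.47. Krt8, the partner of keratin 18, had levels of 10.28, 10.35 and 11.03 in TMS and 7.48, 7.18 and 7.11 in diffMMS, 3.29 higher on the log2 scale (adjusted p = 9.4e-08). Krt18 stood at 9.79, 10.15 and 10.67 against 5.29, 5.54 and 5.66. Both keratins were highest in array 1101A, and no TMS array overlapped with a diffMMS array. Cd24a, a surface glycoprotein used to sort mammary epithelium, was higher by 3.43 with levels of 8.38, 7.61 and 8.85 in TMS. Cldn7, a claudin of tight junctions, was higher by 3.29. The members that did not pass were Muc1, an apical mucin, at 0.02, and Krt19, at -0.32 (adjusted p = 0.0592).

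The same markers check the labels of the cultures. The log2 fold change of diffMMS against MMS was -0.05 for Krt8, -0.44 for Krt18, -0.23 for Epcam and -0.06 for Cdh1, none past the test. The luminal keratin gene Krt19 was higher in diffMMS than in MMS by 0.39 (adjusted p = 0.0203), as were Cldn3 by 0.57, Cd14 by 0.47 and St14 by 0.30 (the last 3 chosen after their values were seen). Cd14 is also on the list of macrophage markers, of which 8 of 22 were higher and 1 lower in diffMMS than in MMS. In all, 4 of the 19 luminal genes were higher in diffMMS than in MMS and none was lower, beside 17.9% and 16.2% of all genes. Of the basal markers, Krt5 differed between diffMMS and MMS by 0.19 and Krt14 by -0.01, neither past the test, and Trp63, the p63 transcription factor, was higher in diffMMS by 0.32. The defining myoepithelial genes Acta2 and Myh11 were also higher in diffMMS than in MMS, by 2.59 (adjusted p = 1.7e-07) and 0.19 (adjusted p = 0.0311). The defining fibroblast genes Col1a1, Col3a1 and Pdgfra were higher in diffMMS than in MMS by 0.87, 0.43 and 1.04, and Dcn was lower (log2 fold change -0.52). Col1a2, also among them, differed by 0.21 and did not pass (adjusted p = 0.0958). Its mean was 13.37 in diffMMS and 13.09 in TMS. Between the groups compared here, Col1a1 stood at 12.96 to 13.23 in diffMMS and 11.80 to 12.12 in TMS, Col3a1 at 13.17 to 13.19 and 12.28 to 12.40, Dcn at 11.39 to 11.76 and 12.07 to 12.33, and Pdgfra at 9.80 to 10.12 and 8.38 to 8.76. Krt8, Krt18, Epcam and Cdh1 thus did not rise past the test with differentiation while Krt19 did, and the cells are called by their treatment below. In MMS and diffMMS, Cdh1 (4.18 and 4.12) lay below the lower quartile over genes and Krt18 (5.93 and 5.49) at or below it. Epcam (6.31 and 6.07) lay near it, so that a rise of Cdh1, Krt18 or Epcam could be missed. In bulk RNA, fewer cells of a type and less RNA per cell cannot be told apart.

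Transcription factors and splicing regulators of the luminal lineage ran with the keratins, with 11 of 23 higher in TMS and none lower (median 0.25). Elf5, the factor that directs alveolar luminal cells, had levels of 7.74, 7.57 and 8.12 in TMS, 4.94 in MMS and 4.79, 4.92 and 4.93 in diffMMS (log2 fold change 2.93, standard error 0.114, adjusted p = 6.1e-09). Its second probe set gave 0.86. Gata3, which maintains luminal differentiation, stood at 6.75, 6.66 and 6.81 against 5.22, 5.20 and 5.05, a difference of 1.58 (standard error 0.0689). Trps1, a GATA-type repressor, was higher by 2.38, and Esrp1, a splicing factor of epithelial isoforms, by 1.78. The hormone receptors did not follow. Esr1, the estrogen receptor, had levels of 5.87 to 5.94 in TMS and 5.82 to 5.97 in diffMMS, and Pgr, the progesterone receptor, 4.95 to 5.21 and 5.08 to 5.22, so that the groups overlapped for both. Esr1 lay near the lower quartile over genes and Pgr below it, so that a difference of either could be missed.

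Milk and secretory genes divided. Of 23 measured, 12 were higher in TMS, and 1 was lower, which is Lpl. Beside Csn3, Lcn2 and Wfdc18, the mucin Muc15 was higher by 3.03. The milk genes Csn1s1 and Lalba, chosen like Muc15 after their values were seen, varied between tumors. Csn1s1, an alpha casein, had levels of 8.32, 8.61 and 7.07 in TMS against 6.47 to 6.69, and Lalba, alpha-lactalbumin, had 9.51, 8.17 and 7.87 against 7.23 to 7.66. Other major milk proteins showed no such difference, since Csn2, beta-casein, stood at 5.75 to 6.02 in TMS and 5.75 to 5.96 in diffMMS, and Wap, whey acidic protein, at 6.05 to 6.17 and 5.97 to 6.27. Both lay near the lower quartile over genes, where a difference can be missed. Lpl, lipoprotein lipase, had levels of 8.73, 8.65 and 8.83 in TMS and 12.17, 11.98 and 11.98 in diffMMS (log2 fold change -3.31, standard error 0.102), and its second probe set gave -3.59.

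**Figure D2:**
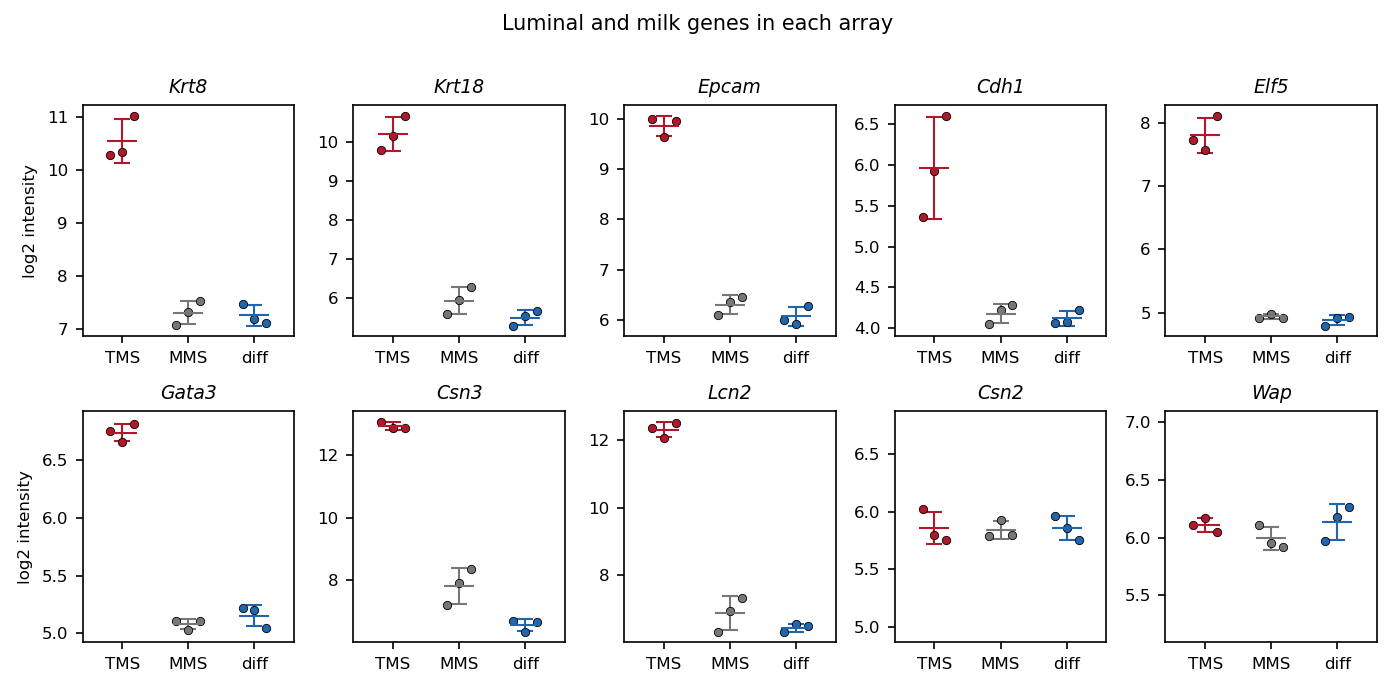
Log2 intensity of luminal and milk genes in each array of tumorspheres (TMS), mammospheres (MMS) and differentiated mammosphere cells (diff), where every array is a point and bars span the mean ± SD (n = 3). TMS arrays stand above the other 6 for Krt8, Krt18, Epcam, Cdh1, Elf5, Gata3, Csn3 and Lcn2, while Csn2 and Wap overlap between the groups.

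Genes of epithelial junctions were higher in TMS for 17 of 31 and lower for none (median 0.26). With probe sets of a mean intensity under 50 left out, 11 members were called. Cdh1, which encodes E-cadherin, had levels of 5.36, 5.92 and 6.60 in TMS and 4.06, 4.08 and 4.23 in diffMMS, a difference of 1.83 (standard error 0.219, adjusted p = 7.3e-05). Its TMS levels differed between tumors by more than 1 on the log2 scale and were highest in array 1101A, as for Krt8 and Krt18. Cldn4, a further claudin, stood at 7.55, 7.94 and 8.92 in TMS and 6.10 to 6.35 in diffMMS. Desmoplakin, Dsp, and Cldn1 were of another kind, for they were low in diffMMS alone: Dsp was higher by 1.75 against diffMMS with 0.31 against MMS, and Cldn1 by 1.22 with -0.13 against MMS (both chosen after their values were seen).

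Promoters of junction genes were read because repressors of the Snail and Zeb families bind the E-box CACCTG in promoters such as that of E-cadherin. RefSeq promoters (GRCm38.p6, 250 bases before to 50 after a gene's start) were found for 17 of the 31 genes, Cdh1 not among them, with 23 promoters in all. CACCTG or its reverse complement CAGGTG stood in 17 of these promoters, or 73.9%, against 20.2% of all 32851 promoters. The promoter of Epcam lies at chr17:87635729-87636028 on the plus strand, and that of Cldn7 at chr11:69965171-69965470 on the plus strand. They are shown with the E-box in capitals because these junction genes differed most, and each holds 2 matches. A second promoter of Cldn7 has none.
Epcam: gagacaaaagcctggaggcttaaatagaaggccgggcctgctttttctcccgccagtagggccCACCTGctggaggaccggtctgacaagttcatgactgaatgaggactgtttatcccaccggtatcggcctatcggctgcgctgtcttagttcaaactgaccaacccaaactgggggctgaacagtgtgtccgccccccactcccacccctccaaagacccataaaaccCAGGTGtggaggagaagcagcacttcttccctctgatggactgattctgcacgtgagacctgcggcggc
Cldn7: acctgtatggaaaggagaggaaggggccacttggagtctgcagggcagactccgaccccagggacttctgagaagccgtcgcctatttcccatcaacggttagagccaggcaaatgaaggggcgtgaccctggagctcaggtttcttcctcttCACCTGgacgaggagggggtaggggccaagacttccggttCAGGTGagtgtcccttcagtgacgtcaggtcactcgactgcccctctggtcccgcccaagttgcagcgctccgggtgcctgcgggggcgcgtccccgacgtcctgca
A match is a description of the letters and no binding site. Members without a call hold the E-box too, among them Crb3 with 4 matches in each promoter and Cldn6 with 2. Their log2 fold changes were 0.01 and -0.01. The called genes Cldn1, Jup and Tjp1 have no match (all 5 named for their matches or lack of them). The genes of the repressors did not pass the test, with log2 fold changes of 0.21 for Zeb1 (adjusted p = 0.337), 0.02 for Zeb2 and -0.05 for Snai2. Zeb2 and Snai2 lay below the lower quartile over genes, where a difference can be missed. Snai1, chosen after its values were seen, lay above it at 8.33 in TMS and 8.3 in diffMMS, and its difference of 0.04 did not pass. Zeb1 stood at 9.62, 9.44 and 8.88 in TMS and 9.06, 9.08 and 9.18 in diffMMS, so that its groups overlapped. Without array 1101A the Zeb1 difference was 0.42 and passed the test.

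Basal and myoepithelial genes moved both ways, with 4 of 24 higher in TMS and 5 lower, beside 12.3% and 12.6% of all genes. Itga6, the alpha6 integrin of the basal surface, rose by 2.10 with levels of 8.10, 8.42 and 8.70 against 6.53, 6.30 and 6.07. Krt14 passed narrowly (log2 fold change 1.23, standard error 0.381, adjusted p = 0.0348), and its TMS levels of 5.83, 6.56 and 8.03 show that array 1101A carried most of the difference. The call was lost in 10 of 19 alternatives, and its other probe sets gave -0.15 and 0.76. Krt5 differed by -0.28, a call lost in 3 alternatives, and Trp63 by -0.21 (adjusted p = 0.0646). Dst, the hemidesmosomal linker dystonin, and Ngfr, a neurotrophin receptor, were lower (log2 fold changes -0.81 and -0.93).

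Contractile genes were lower in TMS for 14 of 26 and higher for 3 (median -0.20). Tagln, the smooth muscle protein transgelin, had levels of 7.16, 7.23 and 7.14 in TMS and 10.17, 10.77 and 10.58 in diffMMS (log2 fold change -3.33, standard error 0.123, adjusted p = 4.5e-09). Acta2, smooth muscle actin, stood at 8.62, 8.86 and 8.26 against 11.07, 11.56 and 11.42, a difference of -2.77, although its second probe set gave -0.12 and did not pass. Myl9, a regulatory light chain of myosin, gave -2.96. MMS had 6.78 for Tagln, 8.76 for Acta2 and 5.68 for Myl9, near TMS in each case. The smooth muscle myosin gene Myh11 did not follow in size, with 5.95 to 5.96 in TMS and 6.14 to 6.21 in diffMMS. The members that rose were Csrp1, Smtn and Tpm4, at 0.56, 0.35 and 0.34. The calls of Myh11 and Smtn were each lost in 4 alternatives.

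Serum response factor drives many contractile genes through the CArG box. Promoters were found for 23 of the 26 genes, Tagln not among them, with 25 promoters, and a CArG box stood in 4 of these or 16.0%, against 1.63% of all promoters. The genes were Myl9, Cnn2, Vcl and Srf, of which the first 3 were lower in TMS while Srf differed by 0.04 and did not pass (Cnn2, Vcl and Srf are named for their match). The promoter of Myl9, chr2:156775214-156775513 on the plus strand, is shown with the CArG box in capitals because no other gene with a match differed as much. Acta2 has no match in this window.
Myl9: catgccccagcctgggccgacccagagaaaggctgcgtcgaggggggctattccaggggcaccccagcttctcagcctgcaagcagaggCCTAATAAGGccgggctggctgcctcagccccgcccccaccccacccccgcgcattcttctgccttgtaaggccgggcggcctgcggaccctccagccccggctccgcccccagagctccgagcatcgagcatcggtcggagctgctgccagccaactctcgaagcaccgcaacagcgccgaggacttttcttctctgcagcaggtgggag
Several targets of TGF-beta and of YAP were also lower in TMS. Thbs1, thrombospondin 1, had levels of 8.44, 9.08 and 9.04 in TMS and 11.61, 12.15 and 12.23 in diffMMS (log2 fold change -3.14, adjusted p = 5.2e-07), but MMS were lower still at 6.77. Ccn2, a matricellular target of both pathways, stood at 7.57, 7.84 and 8.81 against 9.99, 10.40 and 10.74, with 7.01 in MMS. For both genes TMS thus lay between MMS and diffMMS. F3, tissue factor, gave -3.33 and Ccn1, a further matricellular protein, -2.0. In all, 7 of 18 genes of the YAP and TAZ list were lower and 1, Wwtr1 or TAZ, was higher by 0.62.

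In the TGF-beta list the ligand genes were higher in TMS: Inhbb and Inhba, subunits of activin, rose by 1.72 and 0.91, and Tgfb1 by 1.61 with levels of 9.16, 9.33 and 9.47 against 7.70, 7.74 and 7.66 (adjusted p = 1.4e-06). Receptors divided, with Tgfbr1 at 0.80 and the co-receptor gene Tgfbr3 at -1.56. Targets divided too, for the feedback genes Skil (0.82), Pmepa1 (0.62) and Smad7 (0.40) were higher while Thbs1, Ccn2 and the oxidase gene Nox4 (-1.72) were lower. Tgfbr1, Tgfbr3, Skil, Pmepa1 and Smad7 were chosen after their values were seen. Counts were 12 higher and 8 lower of 25, with a median of 0.27.

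**Figure D3:**
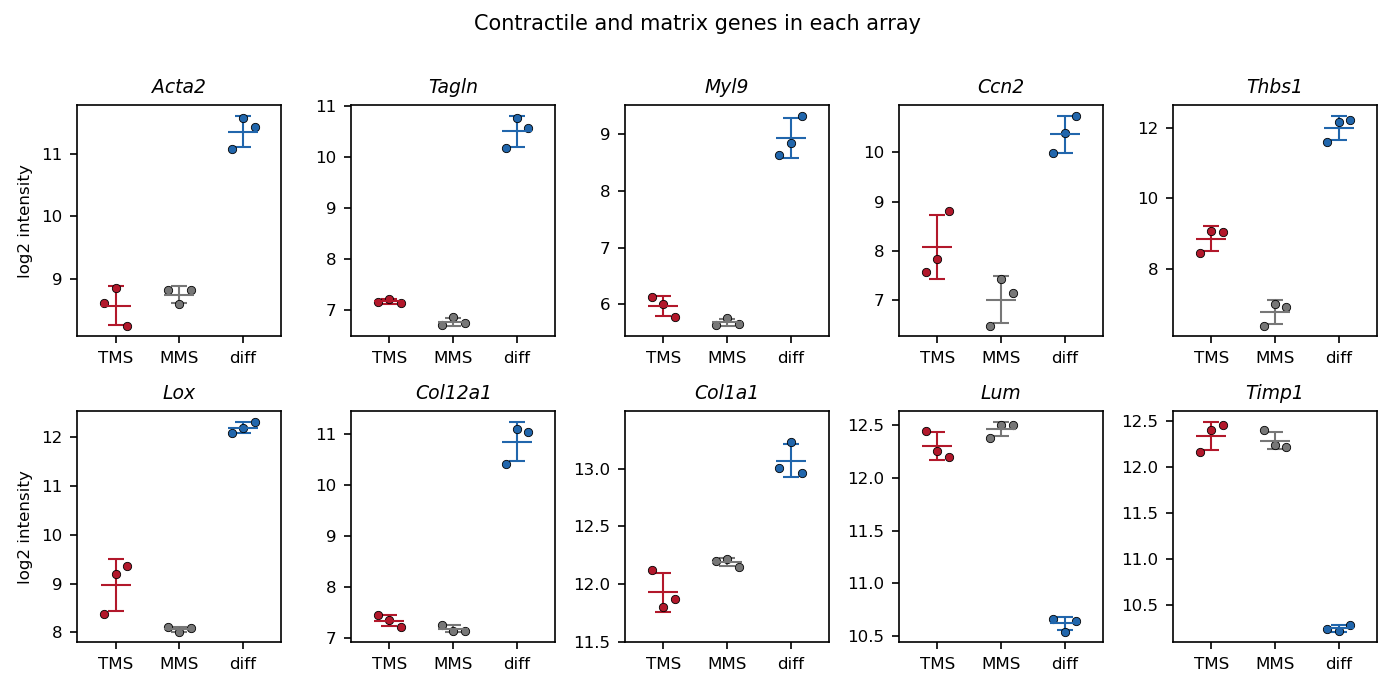
Log2 intensity of contractile, TGF-beta target and matrix genes in each array of tumorspheres (TMS), mammospheres (MMS) and differentiated mammosphere cells (diff), where every array is a point and bars span the mean ± SD (n = 3). The diff arrays stand above all TMS arrays for Acta2, Tagln, Myl9, Ccn2, Thbs1, Lox, Col12a1 and Col1a1, and below them for Lum and Timp1.

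Matrix genes differed in both directions. Of 19 genes of collagen processing, 12 were lower in TMS and 1 was higher (median -0.47). Lox, the lysyl oxidase that crosslinks collagen, had levels of 8.37, 9.20 and 9.36 in TMS and 12.09, 12.19 and 12.32 in diffMMS (log2 fold change -3.22, standard error 0.194), and Plod2, a lysyl hydroxylase, was lower (log2 fold change -2.12). P4ha2, a subunit of prolyl hydroxylase, gave -1.37, while Loxl3 was higher by 0.61. Collagen chains were called in both directions, 8 of 31 each way. Col12a1 and Col8a1 differed by -3.51 and -2.87, and the fibrillar Col1a1 and Col5a1 by -1.13 and -1.44. Col5a3, Col15a1 and Col18a1 were higher in TMS by 1.98, 1.96 and 1.59, and their MMS levels of 10.39, 10.73 and 10.03 lay near or above those of TMS. The second probe set of Col5a3 gave 0.14 and did not pass. Col15a1 and Col18a1 encode collagens of basement membrane zones.

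Of 37 proteoglycans and glycoproteins, 22 were lower in TMS and 9 higher (median -0.45). Small leucine-rich proteoglycans moved in opposite directions. Ogn had levels of 5.49, 5.24 and 5.39 in TMS and 9.14, 8.66 and 9.16 in diffMMS, a log2 fold change of -3.61, and Aspn gave -4.06. Lum, on the other hand, stood at 12.44, 12.25 and 12.20 against 10.66, 10.54 and 10.64, 1.68 higher in TMS, and Dcn was higher by 0.61. Sdc1, a cell surface syndecan, was higher by 2.05 with 10.27 in MMS, and Mgp, an inhibitor of calcification, by 1.39. Matrix proteases and inhibitors were likewise split, 9 higher and 8 lower of 26, with the inhibitor genes Timp1 at 2.09 (levels of 12.17 to 12.46 against 10.22 to 10.29) and Timp3 at -2.50. Mmp10 and Mmp9, secreted metalloproteases, were higher by 1.86 and 1.39.

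Mesenchymal genes and factors of epithelial to mesenchymal transition were called higher in 4 of 26 and lower in 9 (median -0.21). The genes for matrix proteins Fbln2 and Fbln5 differed by -1.46 and -1.19 and the growth factor receptor gene Pdgfra by -1.37. Vim, the intermediate filament vimentin, was higher in TMS by 0.53 with 12.42 to 12.68 against 11.96 to 12.12, though its other 2 probe sets (0.17 and 0.39) did not pass, and S100a4, a calcium-binding protein, by 1.26. The S100a4 call was lost in 2 alternatives. Twist1 (-0.41), Cdh2 (-0.58), Fn1 (-0.25) and Fap (0.65) passed narrowly and lost the call in 5 to 14 of 19 alternatives.

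Genes read out by the MAPK pathway formed the most one-sided signaling list. Of 25 ErbB receptors, ligands and output genes, 15 were higher in TMS and 1 was lower, with a median of 0.67, beside -0.03 for the same list against MMS. Dusp6, the phosphatase that dampens ERK, had levels of 9.58, 9.53 and 8.67 in TMS, 9.48 in MMS and 6.02, 5.94 and 6.21 in diffMMS (3.20 higher, standard error 0.193, adjusted p = 2.0e-07). Phlda1 stood at 8.66, 9.09 and 9.10 against 5.59, 6.01 and 6.0, with 8.54 in MMS. The ETS factor genes Etv5 and Etv4, named after their values were seen, were higher by 1.46 and 1.32. High levels of Dusp6, Phlda1 and Etv4 were thus shared by both sphere cultures, and their log2 fold changes against MMS were -0.22, 0.41 and -0.10, none past the test. Etv5 was higher in TMS than in MMS by 0.46 and passed (adjusted p = 0.0317). Ier3, an immediate early gene, was different, with 8.77, 9.30 and 9.85 in TMS, 7.46 in MMS and 7.48 to 7.54 in diffMMS.

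Among the receptors, Erbb3 was higher in TMS by 1.11 (adjusted p = 7.5e-07), with 7.42, 7.54 and 7.66 against 6.38 to 6.46, although its second probe set gave -0.04. Erbb2, the mouse gene of the receptor family member behind the model, had 7.73, 7.66 and 7.49 in TMS and 7.43, 7.43 and 7.51 in diffMMS, which overlap. In 1 of 19 alternatives it was called higher in TMS than in diffMMS. Against MMS, Erbb2 was higher in TMS by 0.34 (adjusted p = 0.0128). Whether its probe set detects the transgene was not tested. Egfr was lower (log2 fold change -0.37), with 8.82 to 9.19 against 9.31 to 9.43. Its other 4 probe sets gave -0.65 to -0.04, and the call was lost in 1 alternative.

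The insulin-like growth factor axis ran opposite to the MAPK genes, with 8 of 14 members lower in TMS and 1 higher (median -0.75). Igf1, the growth factor itself, had levels of 6.61, 6.48 and 6.42 in TMS and 10.17, 10.01 and 10.10 in diffMMS (log2 fold change -3.59, standard error 0.0805, adjusted p = 1.6e-10), and MMS stood at 7.39. Igfbp3, the main carrier of circulating IGF, stood at 5.32, 5.57 and 5.50 against 8.35, 8.16 and 8.72. Igfbp4 gave -1.66, and Grb10, an adaptor that inhibits the receptor, -1.51. Of the 14, Igfbp5, a binding protein of mammary involution, was the 1 called higher, by 0.99, and its second probe set gave 3.67. Igf1, Igfbp3, Igfbp4 and Grb10 were thus all highest in the differentiated cells.

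**Figure D4:**
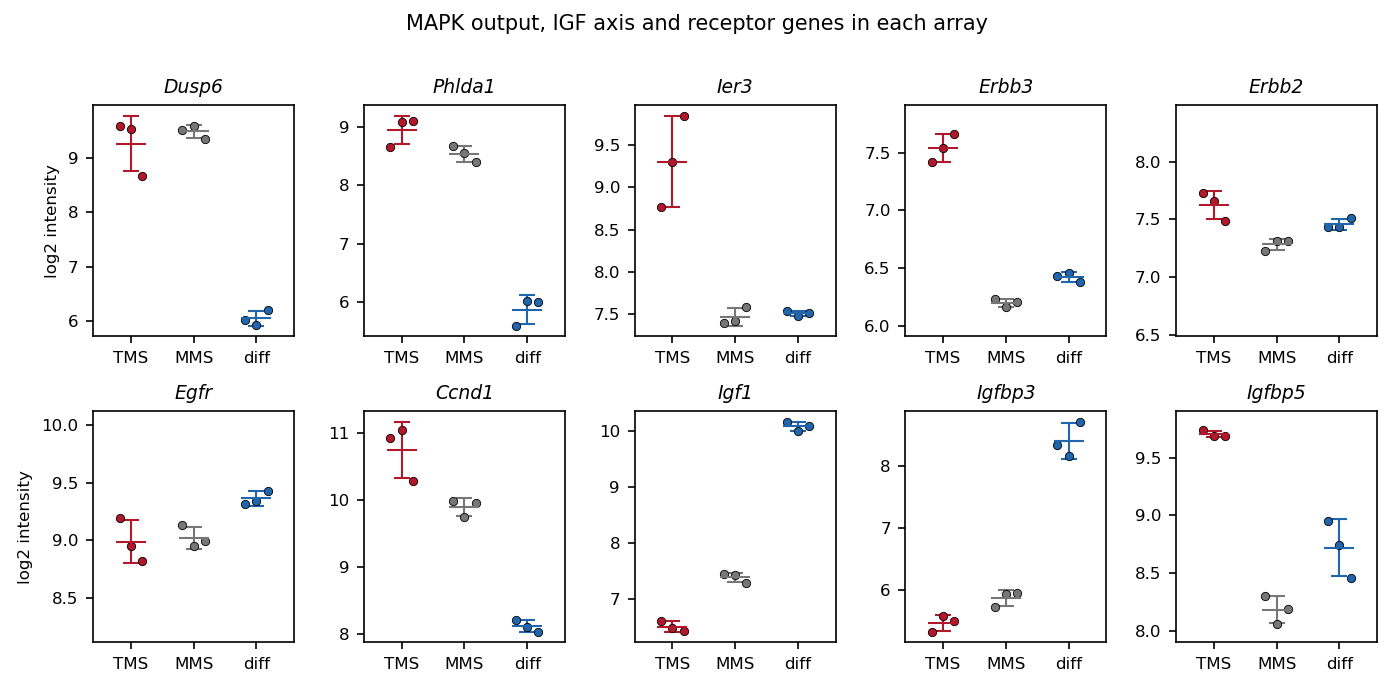
Log2 intensity of MAPK output, receptor, cyclin D1 and IGF axis genes in each array of tumorspheres (TMS), mammospheres (MMS) and differentiated mammosphere cells (diff), where every array is a point and bars span the mean ± SD (n = 3). Dusp6, Phlda1 and Ccnd1 are low in the diff arrays alone, Ier3 and Erbb3 are high in TMS alone, and Igf1 and Igfbp3 are high in the diff arrays alone.

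Smaller signaling lists held single genes with large differences. Notch1, the receptor, had levels of 8.90, 9.25 and 9.15 in TMS and 6.86, 6.68 and 6.97 in diffMMS, 2.26 higher, and Hey1, a Notch target, was higher by 1.37. Counts for the Notch list were 6 higher and 2 lower of 23. Id2, an inhibitor of basic helix-loop-helix factors, was higher by 1.82, and Bmp2 by 1.63 with a wide spread between tumors of 6.06, 7.23 and 5.65. Counts for the list of BMP and Id genes were 3 higher and 6 lower of 22 (median -0.12), with Fstl1 at -1.25 and Fst at -0.77. Of 24 PDGF and FGF genes 9 were lower and 2 higher. Fgf7, a stromal growth factor for epithelium, was lower (log2 fold change -1.69), and Kitl, the ligand of Kit, was higher by 1.71.

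Cell cycle genes were higher in TMS. Of 37 genes of mitosis, 28 were higher and none was lower (median 0.38), and of 44 genes of DNA replication 26 were higher and none was lower (median 0.33). Mki67, a marker of cycling cells, had levels of 7.44, 7.62 and 7.39 in TMS, 8.11 in MMS and 6.22, 6.07 and 6.14 in diffMMS (log2 fold change 1.34, standard error 0.0840, adjusted p = 2.8e-07). Pcna, the clamp of DNA polymerase, stood at 9.62, 9.61 and 9.69 against 8.30, 8.28 and 8.41. Birc5, survivin, was higher by 1.35 and Mcm5, a helicase subunit, by 1.17. MMS stood above TMS in the same lists, where 24 mitosis genes and 19 replication genes were lower in TMS than in MMS and none was higher, beside 7.14% of all genes lower in that comparison. Ccnd1, the cyclin of entry into the cycle, went further, with 10.93, 11.05 and 10.28 in TMS, 9.90 in MMS and 8.22, 8.11 and 8.04 in diffMMS. Its difference of 2.63 stood beside 0.13 for the inhibitor gene Cdkn2a and 0.39 for Cdkn1a, whose call was lost in 8 of 19 alternatives.

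Promoters of mitotic genes are known for the element TTTGAA, called the cell cycle genes homology region, and for CCAAT boxes. Promoters were found for 30 of the 37 genes, with 33 in all, and TTTGAA stood on either strand in 25 of them, or 75.8%, against 17.9% of all promoters. CCAAT stood in 27, or 81.8%, against 37.4%. The promoters of Ube2c, a ubiquitin conjugating enzyme of mitotic exit (1.17 higher in TMS), and of Top2a, topoisomerase II (1.11 higher), are shown with both motifs in capitals as members that hold several copies. Ube2c lies at chr2:164769679-164769978 on the plus strand with 7 matches, and Top2a at chr11:99024140-99024439 on the minus strand with 8. In Ube2c a CCAAT and its reverse complement ATTGG overlap once.
Ube2c: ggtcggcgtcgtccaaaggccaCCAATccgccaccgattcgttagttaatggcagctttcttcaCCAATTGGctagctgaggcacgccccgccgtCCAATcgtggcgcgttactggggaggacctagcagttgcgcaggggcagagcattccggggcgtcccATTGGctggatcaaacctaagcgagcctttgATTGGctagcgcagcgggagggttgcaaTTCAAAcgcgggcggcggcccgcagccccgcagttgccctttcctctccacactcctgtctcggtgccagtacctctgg
Top2a: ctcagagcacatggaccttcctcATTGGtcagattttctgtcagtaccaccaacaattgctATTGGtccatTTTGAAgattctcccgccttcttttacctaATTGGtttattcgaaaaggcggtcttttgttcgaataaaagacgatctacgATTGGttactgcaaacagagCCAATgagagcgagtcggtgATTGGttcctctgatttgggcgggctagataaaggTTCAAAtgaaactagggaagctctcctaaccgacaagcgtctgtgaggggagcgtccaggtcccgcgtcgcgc
Members without a call hold these letters too, among them Kif23 (0.14) with both motifs and Kif2c (0.04) with TTTGAA alone (both named for their match). The called genes Birc5, which rose most in this list, Mad2l1 and Nusap1 hold neither motif in this window (the last named for their lack of a match, as was Mad2l1).

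**Figure D5:**
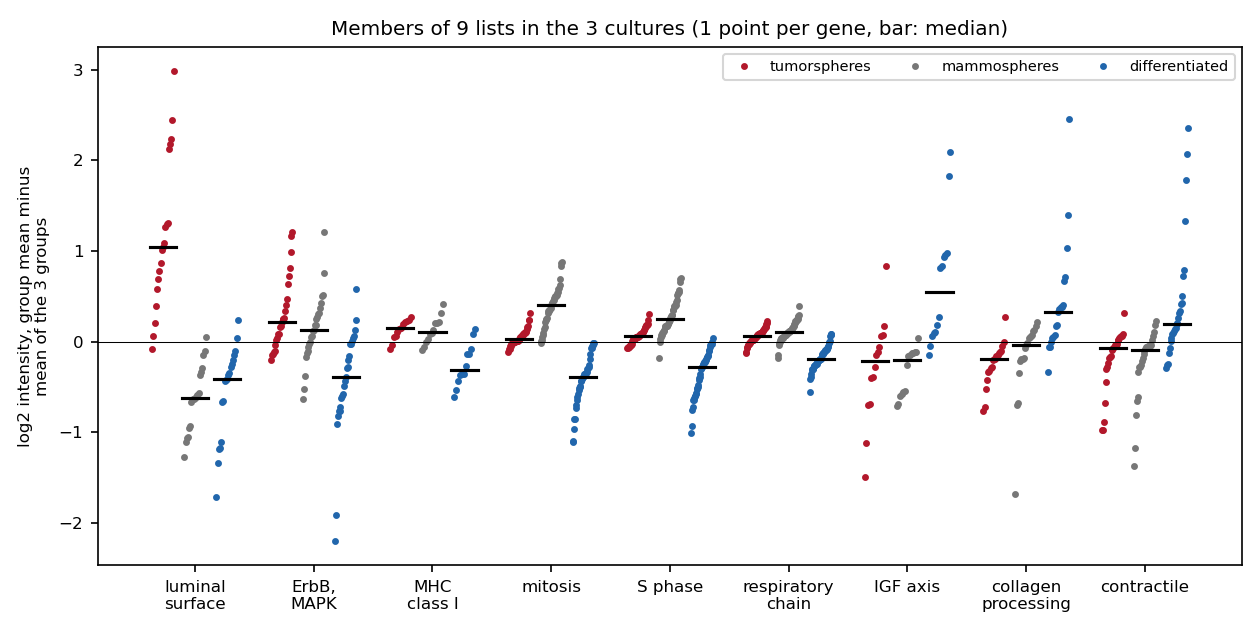
Group mean of each member of 9 gene lists in the 3 cultures, as log2 intensity minus the mean of the 3 groups, with 1 point per gene, points of a group sorted by value, and black bars at the medians. The median of the luminal surface genes is highest in tumorspheres, those of the cell cycle genes fall in the order mammospheres, tumorspheres, differentiated cells, and those of the IGF axis, collagen processing and contractile genes are highest in the differentiated cells.

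Metabolic lists moved less. Subunits of the respiratory chain and ATP synthase were higher in TMS for 24 of 49 and lower for none (median 0.24), as in Cycs, cytochrome c, by 0.72 and Atp5g3 by 0.56. MMS lay near TMS, with 1 member higher and 1 lower in TMS against MMS, beside 6.22% and 7.14% of all genes. In fatty acid synthesis 8 of 19 were higher and 2 lower. Beside Scd1, the sterol regulatory factor gene Srebf1 stood at 9.83, 10.14 and 10.39 in TMS and 8.33 to 8.44 in diffMMS with 8.61 in MMS, and Acsl4, an acyl-CoA synthetase, was higher by 1.79. The 2 called lower, Gpam and Dgat2, lost the call in 10 and 9 of 19 alternatives. Cholesterol synthesis did not move as a list, with 2 of 19 called each way, and Hmgcs1 at 0.15 did not pass.

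Targets of the stress factor ATF4 were lower in TMS, 10 of 27 with none higher (median -0.17). Ddit3, the transcription factor CHOP, had levels of 7.61, 7.61 and 8.34 against 9.20, 9.13 and 9.21, a log2 fold change of -1.32, and Trib3, a pseudokinase, gave -1.10. Among antioxidant and glutathione genes 10 of 32 were higher and 8 lower. The secreted enzymes Sod3 and Gpx3 were lower (log2 fold changes -3.44 and -2.22), as was the glutathione transferase gene Gstm2 (-1.3). The cytoplasmic Txnrd1 and Nqo1 were higher by 1.17 and 1.01. Of 24 genes of glycolysis and the hypoxia response, 9 were higher and 3 lower (median -0.09). Aldoc, an aldolase, stood at 9.60, 8.34 and 9.07 in TMS against 6.24 to 6.29, 2.74 higher (second probe set 0.15, not called), and Egln3, a prolyl hydroxylase, was higher by 1.39, while Adm was lower as given above and Bnip3, a mitophagy gene, gave -1.07.

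Immune genes differed modestly. In the list of MHC class I and antigen presentation 6 of 12 were higher in TMS and none lower (median 0.41), among them the proteasome genes Psmb10 (0.81), Psmb8 (0.74) and Psme1 (0.67). Each of these lay within 0.22 of its MMS level. Interferon response genes were called 3 higher and 4 lower of 30, shares close to those of all genes. Of 32 chemokine and cytokine genes, 6 were higher and 8 lower. Ccl2, a monocyte attractant, had levels of 8.88, 9.48 and 10.36 against 7.22 to 7.42 (2.27 higher) with 9.52 in MMS, and Ccl8 was higher by 1.74, whereas Cxcl12, a stromal chemokine, was lower (log2 fold change -1.34). Complement genes were lower for 4 of 14, with Serping1, the C1 inhibitor, at -1.31.

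Markers of other cell types moved with the comparison in part. Of 22 macrophage markers, 6 were higher in TMS and none lower (median 0.13), and array weights raised the count to 11. Lyz2, lysozyme, had levels of 9.37, 10.32 and 9.21 in TMS and 8.70, 8.38 and 7.35 in diffMMS, and Lyz1 rose by 1.61. Both were highest in array 1100A. Of the defining markers, Cd68 was higher by 0.62, while Adgre1 (0.02), Csf1r (-0.20) and Tyrobp (0.12) did not pass, and Adgre1 lay at 5.54 to 5.71 in TMS and 5.55 to 5.72 in diffMMS. These Adgre1 levels are below the lower quartile over genes. The summed intensity of the list was 2858 to 4865 in TMS, 1772 to 2608 in diffMMS and 1519 to 1648 in MMS, with 6 members shared with another list. The part of macrophage RNA in the results above, such as Lcn2 and Ccl2, was not tested.

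Adipocyte markers were lower for 7 of 17 and higher for none (median -0.21), with a summed intensity of 2043 to 2111 in TMS and 6051 to 6715 in diffMMS. Most of the diffMMS sum came from Lpl. The defining markers Adipoq and Fabp4 stood at 4.63 to 4.72 and 5.62 to 5.69 in TMS and 4.72 to 4.78 and 5.57 to 5.70 in diffMMS, none past the test, and Plin1 was not analysed here. Endothelial and pericyte markers were lower for 7 of 24 and higher for 2, with Cdh5 at -0.40 and Pecam1 at -0.38, the latter lost in 10 of 19 alternatives. Their summed intensity was 2057 to 2352 in TMS and 2484 to 2614 in diffMMS. Of 18 leukocyte markers 1 was higher and 3 were lower, and Ptprc, the pan-leukocyte CD45, stood at 4.94 to 5.11 and 4.85 to 4.98. The summed intensity of that list was 1288 to 1665 in TMS and 1624 to 1931 in diffMMS. Adipoq, Fabp4 and Ptprc lay below the lower quartile over genes, where a difference can be missed. The part of these cells in the results was not tested.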

How the data were processed

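The authors deposited 1 table of probe set intensities from 9 MOE430A arrays, on a linear scale and already summarised. GeneSpring is named for the analysis, and the summary and scaling method is not given in the sources used here. Here log2 was taken after adding a pseudocount of 8.67 (10% of the overall median intensity), and the arrays were quantile normalized over all 22690 probe sets. After removal of 64 Affymetrix controls, 22626 probe sets entered 1 model of all 9 arrays and 3 groups (R 4.3.3, limma 3.58.1, lmFit and trended eBayes, 6 residual degrees of freedom). Two-sided p-values were adjusted over all probe sets by Benjamini and Hochberg, with a threshold of 0.05. The script was checked on simulated data. With 3 arrays per group, their number limits the precision.

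Of the probe sets, 20380 carry 1 gene symbol, 691 several and 1555 none in the platform annotation, and 20351 Entrez identifiers matched RefSeq (GRCm38.p6). For each of 12393 genes the brightest probe set by mean was used. The 45 lists and their members were chosen with earlier results of these data known, and no list was tested. Genes are named by rule: the 10 largest rises and 10 largest falls, the 3 largest of each kind in each list, and defining markers. Other names are marked as chosen after their values were seen, or serve as cell markers and list ranges. Alternatives were other scalings, pseudocounts, filters on dim probe sets, eBayes settings, array weights, the 2 groups alone, 1 array left out, stricter thresholds and another choice of probe set. Promoters were those of RefSeq (GRCm38.p6), and a CArG box was 2 C, 6 A or T and 2 G. Figures were drawn with matplotlib 3.10.9.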

Additional observations from a re-analysis of the deposited data

How the results depend on the processing

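Of 238 genes named by the rule, 220 were called, 184 of these in all of up to 19 alternatives, 36 lost the call in at least 1, and no called gene changed direction. The stricter thresholds are not among these 19, for they were applied to probe set totals and list counts and not to single genes. Of the genes not called, 8 changed sign in some alternative (Actb, Adgre1, Cdkn2b, Csn2, Esr1, Snai2, Wap and Zeb2). With the values as deposited 2782 probe sets were higher and 2194 lower, with arrays centred on the median 2705 and 2278, and without a pseudocount 2792 and 2589. Leaving out 1 array gave 2283 to 2941 higher and 1959 to 2685 lower. At an adjusted p under 0.01 the counts were 1749 and 1417, and with a log2 fold change of at least 1 they were 385 and 320. No probe set called in the main setting was called in the opposite direction elsewhere. Of the 45 list medians, 11 changed sign in some alternative, all of them small (collagen chains, matrix proteases, Notch, cholesterol, glycolysis and hypoxia, chaperones, interferon, complement, chemokines, neural and retinoid genes). No paired analysis was possible because neither the labels nor the columns carry replicate numbers shared between the groups.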

Other observations

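Retinoid genes differed in both directions. Crabp1, which binds retinoic acid in the cytoplasm, had levels of 12.27, 12.12 and 12.02 in TMS, 12.38 in MMS and 8.94, 8.95 and 8.76 in diffMMS, 3.25 higher in TMS (standard error 0.0815, adjusted p = 3.2e-10). Crabp2 was higher in TMS by 1.98, and Stra6, the membrane receptor of retinol-binding protein, by 1.63. Aldh1a1, an enzyme that makes retinoic acid, gave -1.0, with 4.31 to 4.48 against 5.16 to 5.84. The list as a whole was called 5 higher and 5 lower of 19, and lower counts fell to 2 with dim probe sets left out and 3 without array 861A.

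Of 21 imprinted genes 6 were lower in TMS and 2 higher. Plagl1, an imprinted zinc finger factor, had levels of 6.36, 5.66 and 6.12 in TMS, 7.43 in MMS and 9.20, 9.33 and 9.29 in diffMMS, a log2 fold change of -3.23, although its second probe set gave -0.72. Mest, another imprinted gene, gave -1.17. Of 28 Hox genes 8 were lower and none higher, with Hoxc8 at -1.64 (5.94, 6.43 and 6.81 against 7.76, 8.15 and 8.18) and Hoxc6 at -0.75. The Hox count was 5 without array 1100A, 3 without array 1101A, 3 without array 862A and 4 with the 2 groups fitted alone. Of the surface markers used to sort mammary stem and progenitor cells, 8 of 17 were higher and 2 lower, and beside Cd24a and Itga6 these included Itgb3, the beta3 integrin, at 1.05, while Lgr5 gave -0.62. Among neural and melanocytic markers Mitf was higher by 1.52 and Sox10, with 8.78, 8.60 and 8.61 against 7.84 to 7.91, by 0.79, while Ncam1 gave -2.13. Lysosomal genes were called both ways, 9 higher and 7 lower of 29, with the collagen-degrading cathepsin gene Ctsk 1.60 higher and the legumain gene Lgmn at -0.96.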
